A study of Mus musculus with 8 samples.

Results

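Heat-shock proteins and their DnaJ co-chaperones were followed in stromal cells of the mouse small intestine. Members were all rows of the deposited table whose gene name begins with Hspa, Hspb, Hspd, Hspe, Hsph, Hsp90 or Dnaj, apart from 13 rows named as pseudogenes. The rule gave 74 of the 53801 genes in the table, and 63 of them had enough counts to be tested among 16354 genes. The names also bring in Hspbp1, an exchange factor of Hsp70, and Hspb11 and Hspbap1, which carry the letters without being small heat-shock proteins.

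The cells came from LTβRYFP mice and lacked both CD45, carried by blood cells, and CD31, carried by endothelium. They were sorted into a gate with YFP (YFP+) and a gate without it (YFP-), with 4 libraries per gate. The reporter carries the name of the lymphotoxin beta receptor, LTβR. Both gates share the tissue, the sort and the reporter strain. The sources used here give neither the age, sex and number of the mice nor the driver of the reporter or any pooling.

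Hsp70 proteins bind exposed stretches of unfolded protein in a cycle driven by ATP hydrolysis. DnaJ proteins, also called Hsp40, bring clients to Hsp70 and speed up the hydrolysis, and exchange factors such as Hsph1 and the Bag proteins then free the nucleotide. Hsp90 acts later, often on signalling proteins, small heat-shock proteins hold unfolded chains without ATP, and Hspd1 with Hspe1 folds proteins inside mitochondria. Under heat or other protein-damaging stress the factor Hsf1 binds heat-shock elements, inverted repeats of the letters GAA, and raises the inducible members, while constitutive members serve everyday folding.

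Members were put into classes from textbook knowledge. The inducible class held 12 genes, the constitutive class 28, the chaperones of the endoplasmic reticulum (ER) lumen 9 and the small heat-shock proteins best known from muscle 4, and 21 members had no class. Every inducible and constitutive member was tested, with 8 of the ER class, 2 of the muscle class and 13 of those without a class.

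Sequences near the start are shown because the inducible class is named for its response to Hsf1, whose element can be read in the letters. RefSeq promoters (GRCm38.p6, 250 bases before to 50 after each start) were found for 60 of the 74 members. The letters searched on both strands were GAANNTTC and TTCNNGAA, both a pair of inverted units and each its own reverse complement. The long form, a heat-shock element of 3 units, adds a further inverted unit after another NN and so contains a short one. The lines give 150 bases just upstream of the start where no annotated exon lies there, and otherwise a site of at most 30 bases, 5′ to 3′ on the gene's strand, with matched letters in capitals.
Hspa1a, chr17:34972157-34972306, minus strand: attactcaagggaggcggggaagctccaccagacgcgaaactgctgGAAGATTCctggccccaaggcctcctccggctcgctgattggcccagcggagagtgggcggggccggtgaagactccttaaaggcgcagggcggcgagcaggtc
Hspa1b, chr17:34959239-34959388, minus strand: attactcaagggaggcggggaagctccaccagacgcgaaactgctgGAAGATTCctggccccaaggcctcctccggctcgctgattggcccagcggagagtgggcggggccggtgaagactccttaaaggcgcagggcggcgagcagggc
Hspb1, chr5:135887769-135887918, plus strand: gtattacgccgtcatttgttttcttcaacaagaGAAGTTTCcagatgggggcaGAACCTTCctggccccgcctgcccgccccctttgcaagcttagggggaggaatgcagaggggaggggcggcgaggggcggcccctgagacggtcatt
Dnajb1, chr8:83608025-83608174, plus strand: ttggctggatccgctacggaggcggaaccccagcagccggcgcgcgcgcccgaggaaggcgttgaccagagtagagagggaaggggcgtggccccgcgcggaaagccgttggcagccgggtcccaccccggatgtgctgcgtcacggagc
Dnaja4, chr9:54699458-54699487, plus strand: ggaacctccgcGAACGTTCtgggcctatgt
Hspe1, chr1:55088053-55088082, plus strand: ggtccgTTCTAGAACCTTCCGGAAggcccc
Hsph1, chr5:149636280-149636308, minus strand: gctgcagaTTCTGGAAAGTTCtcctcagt
Dnajb6, chr5:29735844-29735872, plus strand: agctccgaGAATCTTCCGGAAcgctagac

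A short form stood in a promoter of 10 of the 11 inducible genes with an entry (90.9%), of 2 of 21 constitutive genes (9.52%) and of 1 of 8 ER genes (12.5%). The inducible Hsp90aa1 and the constitutive Hspa8 and Hsp90ab1 were among the members without an entry and were not searched. Over all 27025 genes in the promoter table the share was 17%. The long form was found in 3 inducible genes (Hspd1, Hspe1 and Hsph1) and in 1 constitutive gene, Dnajb6, against 0.662% of all genes. Hspd1 and Hspe1 are transcribed away from each other and share the run of 18 matched bases shown for Hspe1, which lies in an exon of Hspd1. The upstream windows of Hspa1a and Hspa1b were identical at 149 of 150 positions. The promoter of Dnajb1 did not hold these letters, which says only that the letters are not in that window.

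The labels conflict on the gates. In 8 of 8 samples the YFP sign in the title is the reverse of that in the description and genotype. Groups follow the latter, and if the titles held, each direction between the gates would be the other way round. Ltbr itself did not pass the test between gates (log2 fold change 0.12, SE 0.08, edgeR adjusted p = 0.396). Libraries held 23272858 to 28688906 counts (YFP-) or 23404630 to 29829232 counts (YFP+), and 0.639% to 0.889% of these came from members. Levels are given in CPM, counts per 1000000, by library total and TMM factor. Most of 8 fibroblast genes were high in both gates. The 8, among them Pdgfra and Col1a1, summed to 39285 to 46430.2 CPM in YFP- and 34084 to 37809 CPM in YFP+. Most of each sum came from Col1a1, Col1a2 and Col3a1. Thy1, also among the 8, was low, with means of 0.917 CPM in YFP- and 0.468 CPM in YFP+. Since nothing in the labels ties each library to its own animal, the p-values rest on the spread among these libraries alone, and that spread may be technical.

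Per kilobase of exon, Hsp90ab1, the constitutive cytosolic Hsp90, had the highest level of the members, 376 ± 42.9 CPM per kilobase in YFP- (SD, n = 4) and 360.5 ± 38.4 in YFP+ (SD, n = 4). Hspa5 (BiP, the Hsp70 of the ER) followed at 227 ± 54.5 and 205 ± 63.2 CPM per kilobase, and Hsp90b1 (the Hsp90 of the ER) at 203 ± 41.9 and 199 ± 44.8. Next came the inducible Hsp70 genes Hspa1b (162 ± 87.1 in YFP- and 142 ± 66.6 in YFP+) and Hspa1a (149.7 ± 72.4 and 140.5 ± 66.8), then Hspa8, the constitutive Hsp70, at 144 ± 15.1 and 125 ± 12. Neighbours from Hspa5 down to Hspa8 differed by less than the larger SD of each pair, so their order is not settled by these libraries. Hsp90aa1, the inducible cytosolic Hsp90, stood at 114 ± 23.7 CPM per kilobase in YFP- and 103 ± 16.2 in YFP+. Many 50-base stretches in the annotated transcripts of Hspa1b (62.3%), Hspa1a (60.3%), Hsp90aa1 (58.5%) and Hspa8 (51.4%) also occur in other genes, against 4.49% for Hsp90ab1. Reads from such stretches may have been lost or shared out. The levels of those genes, and their place below Hsp90ab1, are therefore uncertain.

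Most inducible chaperones stood at different levels in libraries of different replicate number, in both gates. A test of the replicate number, in the same fit as the gate, passed for 10 of 12 inducible members, 2 of 28 constitutive members (Hsp90ab1 and Hspa8) and 5 of 8 ER members, with 9.20% of all tested genes as background (edgeR F test, adjusted p under 0.05). The highest mean of a same-numbered pair was at number 2 for 10 of 12 inducible members and at number 1 for 0. For the ER class it was at number 1 for 7 of 8 and at number 2 for 0. Over all 16354 tested genes it was at number 2 for 4837 and at number 1 for 4037. The labels do not say what a number stands for, and this test was added after the levels had been seen. With both libraries numbered 2 left out, 6 of the 12 inducible members still passed.

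Hspa1b, an inducible Hsp70 (chromosome 17, 34956436 to 34959238, minus strand), stood at 228, 781, 490.2 and 315 CPM in YFP- replicates 1 to 4. In YFP+ its levels were 215, 609, 499.7 and 271 CPM. Both gates had their highest library at number 2 and their lowest at number 1, and the gates overlapped. The pair means spanned 1.64 on the log2 scale (edgeR adjusted p for replicate number = 4.34e-12), while the log2 fold change between gates was -0.16 (SE 0.06, edgeR adjusted p = 0.0772).

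Hspa1a, its neighbour on the chromosome (34969190 to 34972156, minus strand), had 224, 719, 498 and 336 CPM in YFP- and 235, 675, 466 and 291 CPM in YFP+. The numbers ranked the same way in both gates, and the same way as for Hspa1b. Its pair means spanned 1.60 on the log2 scale (edgeR adjusted p for replicate number = 1.67e-12), beside a log2 fold change between gates of -0.08 (SE 0.05, edgeR adjusted p = 0.374). Of the 50-base stretches in the annotated transcripts, 60.3% of those of Hspa1a and 62.3% of those of Hspa1b also occur in another gene, so the split of reads between the 2 genes is uncertain. Hspa1l, a related Hsp70 gene on the opposite strand beside Hspa1a and outside the inducible class, had 3.22, 13.3, 5.35 and 3.44 CPM in YFP- and 2.90, 11.8, 5.76 and 3.15 CPM in YFP+. It too was highest at number 2 in both gates, and its pair means spanned 2.01 on the log2 scale (edgeR adjusted p for replicate number = 2.48e-05). Its exons overlap Gm10501 on the opposite strand by 1778 bases. Of its 50-base stretches 9.57% also occur in Hspa1a or Hspa1b. Reads of those far more abundant genes may be among its low counts, and their part in its order of numbers was not tested.

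Hsph1, the Hsp110 exchange factor that works with Hsp70 (chromosome 5, 149614287 to 149636376, minus strand), had 155, 564, 267 and 158 CPM in YFP- and 165, 339, 195 and 132 CPM in YFP+. Number 2 was the highest library of each gate, and none of the gene's 50-base stretches occurs elsewhere. Its log2 fold change between gates was -0.34 with an SE of 0.14 and did not pass (edgeR adjusted p = 0.269). Without the libraries numbered 1, both or either, Hsph1 passed as lower in YFP+, in effect 1 result. With the block, a library left without its partner tells nothing about the gate, here and for the genes below. Hsph1 also passed with limma-voom and with no filter on low counts, and its adjusted p ran from 5.84e-05 to 0.807 over the alternatives.

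Hsp90aa1 had 400, 588, 424 and 388 CPM in YFP- and 357, 486, 423 and 351 CPM in YFP+. Number 2 was again highest in each gate, and the log2 fold change was -0.15 (SE 0.05, edgeR adjusted p = 0.0724), with YFP+ below YFP- in 4 of 4 pairs. With a filter of 1 CPM in 4 libraries it passed (edgeR adjusted p = 0.0471). Hspb1, the small heat-shock protein Hsp25, was a low gene with 4.02, 12.3, 4.96 and 2.72 CPM in YFP- and 3.31, 5.42, 3.6 and 2.35 CPM in YFP+. Its levels were also highest at number 2 and lay lower in YFP+ in 4 of 4 pairs, but the log2 fold change of -0.55 had an SE of 0.24 and did not pass (edgeR adjusted p = 0.171). With pair 2 out of the comparison, by leaving out its YFP- or its YFP+ library, the log2 fold change of Hspb1 was -0.31 or -0.32. Reads of both genes are uncertain, since 58.5% of the 50-base stretches of Hsp90aa1 and 51.6% of those of Hspb1 occur in other annotated genes, pseudogenes among them.

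The J-proteins Dnajb4 and Dnaja4, which deliver clients to cytosolic Hsp70, had no shared stretches and were also highest at number 2 in each gate. Dnajb4 had 110.4, 199, 151 and 139.5 CPM in YFP- and 118, 195, 173 and 136 CPM in YFP+, lowest at number 1 in each gate. It was the inducible member with an estimate above 0 (log2 fold change 0.06, SE 0.06, edgeR adjusted p = 0.637). Dnaja4 had 33.8, 61.8, 45.6 and 30 CPM in YFP- and 29.9, 48.6, 43.3 and 25.7 CPM in YFP+. It lay lower in YFP+ in 4 of 4 pairs without passing (log2 fold change -0.20, SE 0.09, edgeR adjusted p = 0.143), and its exons overlap those of Wdr61 on the opposite strand by 1581 bases. The strand setting of the counting is not given, so reads of such overlaps cannot be assigned to 1 gene.

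For the mitochondrial pair Hspd1 and Hspe1 the pair means spanned 0.58 and 0.55 on the log2 scale. Hspd1, the Hsp60 chaperonin, had 59.6, 73.9, 59.4 and 44.8 CPM in YFP- and 48.1, 63.3, 46.9 and 46.7 CPM in YFP+, highest at number 2 in each gate (edgeR adjusted p for replicate number = 0.00637). Its log2 fold change between gates was -0.20 (SE 0.08, edgeR adjusted p = 0.107), and it passed as lower in YFP+ without the YFP- library numbered 4, the YFP+ one or both (adjusted p = 0.0444, 0.0356 and 0.0331). These are in effect the same check, with pair 4 out of the comparison. Of the 50-base stretches of Hspd1, 44.8% occur elsewhere in the annotation. Hspe1, its lid protein Hsp10, had 8.08, 15.4, 16.1 and 10.8 CPM in YFP- and 13, 12.9, 12.1 and 8.62 CPM in YFP+, with no common order of numbers in the gates. Neither the replicate number (edgeR adjusted p = 0.247) nor the gate (log2 fold change -0.09, SE 0.16, edgeR adjusted p = 0.818) passed for Hspe1.

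**Figure D1:**
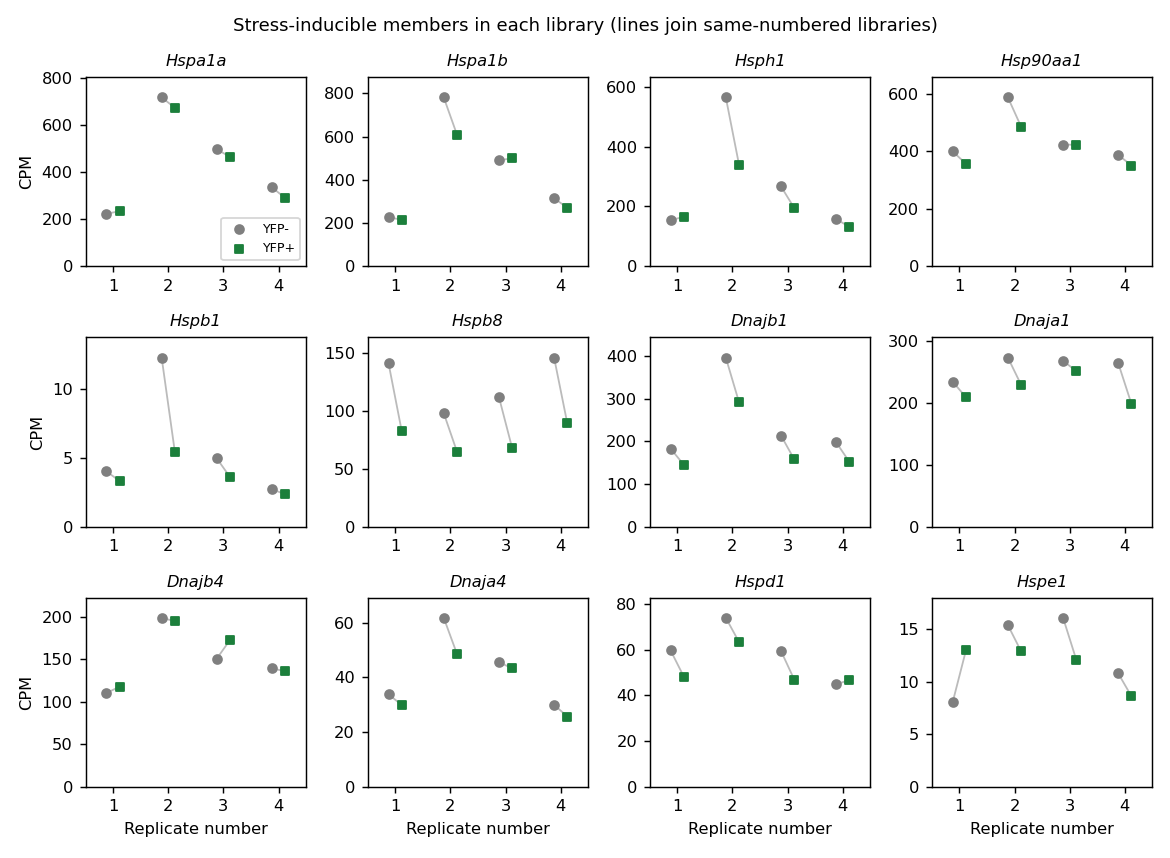
Levels of the 12 inducible members in CPM (y axes start at 0) against replicate number, with grey circles for YFP-, green squares for YFP+ and lines joining libraries of the same number. Most genes are highest at number 2 in both gates, as in Hspa1b at 781 and 609 CPM, while Hspb8 is lowest there and its gates do not overlap.

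**Figure D2:**
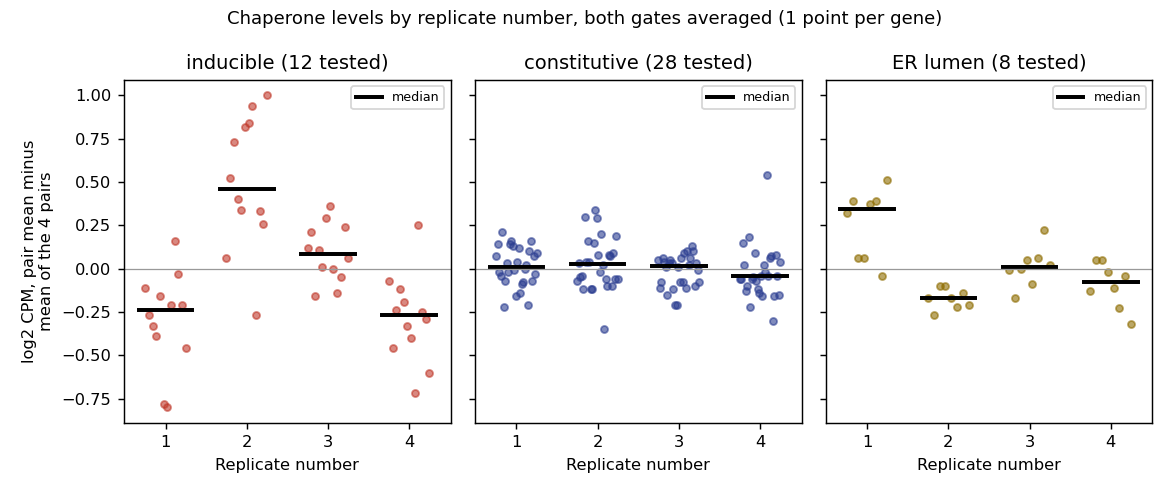
Each point is 1 gene's mean log2 CPM over the 2 libraries of a replicate number minus its mean over the 4 numbers, for the inducible, constitutive and ER classes, with bars at the class median. The inducible median lies at 0.46 for number 2, and the ER median lies at 0.34 for number 1.

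The same pattern showed in summed levels. The 12 inducible genes summed to 1781, 3782, 2549.9 and 2033 CPM in YFP- replicates 1 to 4 and to 1621, 3021, 2339 and 1704 CPM in YFP+. The constitutive class stayed between 2642 and 2985 CPM in YFP- and between 2503 and 2800.4 CPM in YFP+. The ratio of the inducible to the constitutive sum was 0.597, 1.37, 0.891 and 0.77 in YFP- and 0.581, 1.1, 0.835 and 0.681 in YFP+. It was thus highest at number 2 and lowest at number 1 in each gate, and lower in YFP+ than in YFP- within each pair. The summed level of 20 immediate-early genes (Fos, Jun, Egr1 and others, genes switched on within minutes by many stimuli) did not have that order, at 12246, 12416, 12624 and 14601 CPM in YFP- and 9921, 10364, 9760.1 and 10312 CPM in YFP+. Of these genes 11 differed among replicate numbers, and not in 1 order. Jun had 1231, 1879, 1365 and 1622 CPM in YFP- and 1057, 1623, 1078 and 1170.4 CPM in YFP+ and was, like Klf6, highest at number 2 and lowest at number 1 in each gate (edgeR adjusted p for replicate number = 3.08e-06 for Jun and 7.23e-08 for Klf6). Fos and Dusp1 had their lowest pair means at number 2 (edgeR adjusted p for replicate number = 0.00032 and 1.69e-05). Jun and Klf6 were chosen after their values were seen, as were Fos and Dusp1.

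Cell-type markers also differed among replicate numbers, and their part in the order of the inducible class was not tested. The summed level of 12 smooth-muscle markers was 1383, 1482, 1405 and 1081 CPM in YFP- and 1774, 2169, 1836 and 1458 CPM in YFP+, highest at number 2 in each gate. Of the 12 markers 9 passed for replicate number. Among these, Des and Smtn had their highest pair means at number 1 and the others at number 2. Blood cell markers summed to 306, 87.2, 297 and 199 CPM in YFP- and 342, 45.5, 134 and 209 CPM in YFP+, lowest at number 2 in each gate.

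**Figure D3:**
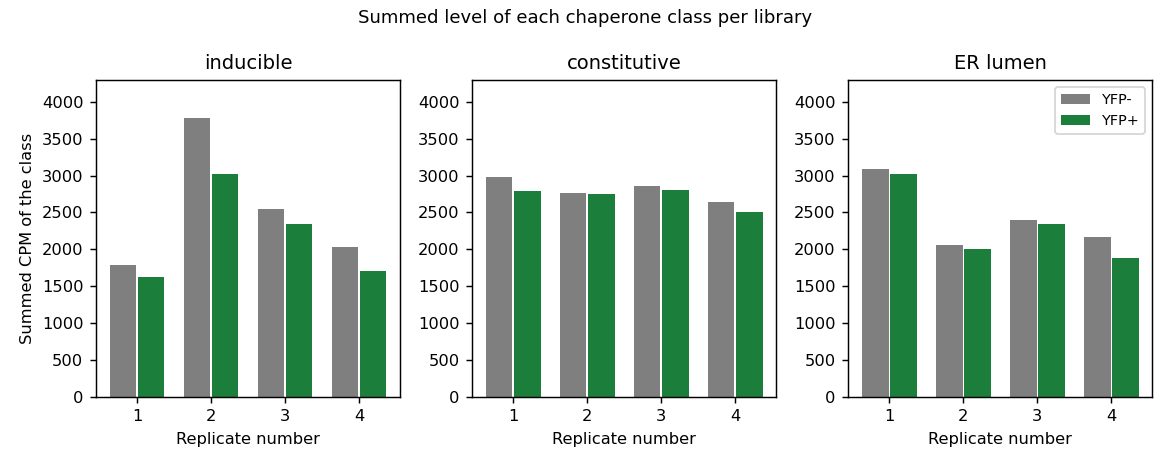
Summed CPM of the inducible, constitutive and ER classes in each library by replicate number, with grey bars for YFP- and green bars for YFP+. The inducible sum reaches 3782 CPM in the YFP- library numbered 2, and the ER sum is highest at number 1 in both gates.

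Between the gates, 6 of the 63 tested members were lower in YFP+ and 1 was higher (edgeR quasi-likelihood test with replicate number as block, adjusted p under 0.05). Over all tested genes 7.85% were lower and 3.65% higher, so the count of members is near the background. The members that fell were Hspb8, Dnajb1, Dnaja1, Hspa8, Dnajb6 and Hspa5, and the one that rose was Dnajc8. In bulk samples fewer cells of a type and less RNA per cell cannot be told apart. Without the replicate block, Hspb8 was the one member that passed.

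By class, 3 of 12 inducible members were lower and 0 higher by edgeR, as by DESeq2, and at an unadjusted p under 0.05 the counts were 8 and 0. By limma-voom 4 were lower and 0 higher. The share of all tested genes at the unadjusted threshold was not worked out, so unadjusted counts have no background beside them, here or below. The median log2 fold change of the class was -0.20, and 11 of its 12 estimates lay below 0, against a median of 0.01 and 48.9% of estimates below 0 over all tested genes. Of the 28 constitutive members, 2 were lower and 1 was higher, the median was 0.05 and 10 estimates lay below 0. The inducible median minus the constitutive median was -0.25 on the log2 scale, and within pairs 1 to 4 the difference was -0.15, -0.41, -0.25 and -0.19. YFP+ lay below YFP- in 4 of 4 pairs for 6 inducible and 2 constitutive members, where 16.2% of all tested genes did so, and above it for 0 inducible and 4 constitutive members, where 14.0% did so.

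**Figure D4:**
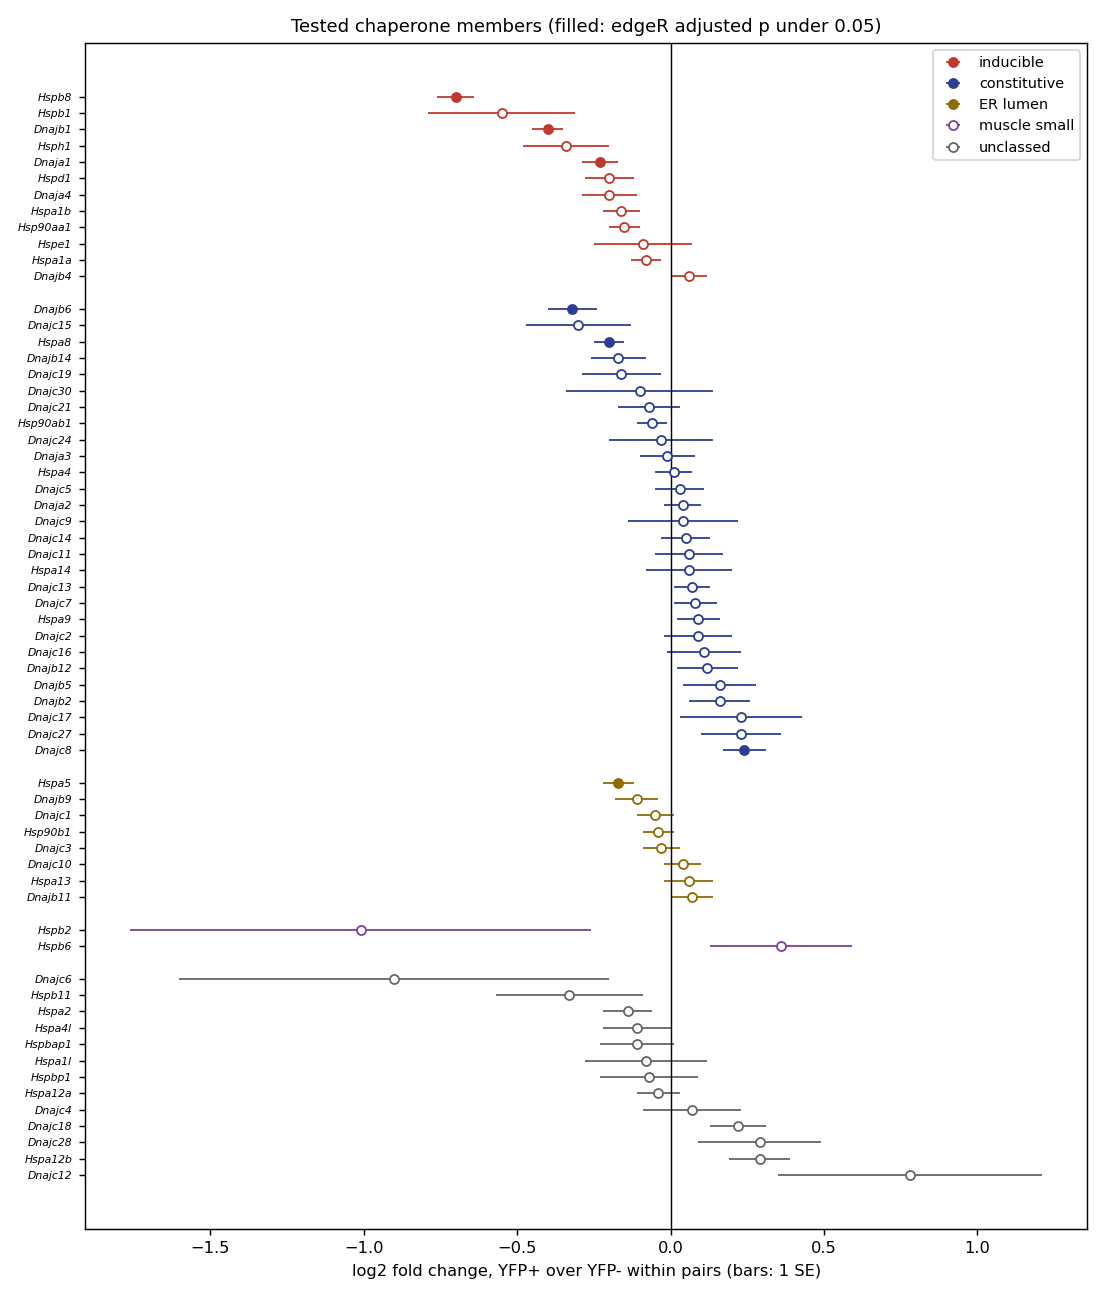
Log2 fold change of YFP+ over YFP- within same-numbered pairs for the 63 tested members, grouped by class, with bars of 1 SE and filled points where the edgeR adjusted p is under 0.05. The inducible estimates lie from -0.70 to 0.06 with 3 filled points, and the constitutive ones lie from -0.32 to 0.24 on both sides of 0.

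Hspb8, a small heat-shock protein that works with Bag3 in clearing misfolded protein (chromosome 5, 116408491 to 116422864, minus strand), fell the most of the members that passed. It had 141, 98.0, 112 and 146 CPM in YFP- and 82.2, 64.8, 67.9 and 89.2 CPM in YFP+, with means of 124 ± 23.2 and 76 ± 11.6 CPM (SD, n = 4). Every YFP+ library lay below every YFP- library, which held for 5.86% of all tested genes. The log2 fold change was -0.70 (SE 0.06, edgeR adjusted p = 8.61e-09), and it passed under each of 21 alternatives, with log2 fold changes from -0.73 to -0.67 and adjusted p from 9.1e-23 to 0.011. These are fewer separate checks than 21, since with the block a library left without its partner tells nothing about the gate. Unlike the other inducible members that differed among replicate numbers (edgeR adjusted p = 0.000327 for Hspb8), its pair mean was lowest at number 2.

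Dnajb1, the main inducible Hsp40 (chromosome 8, 83608193 to 83612653, plus strand), had 183, 397, 214 and 198 CPM in YFP- and 145, 292, 158 and 152 CPM in YFP+, with means of 248 ± 100.4 and 187 ± 70.5 CPM (SD, n = 4). Number 2 stood far above the others in each gate, so the gates overlapped although YFP+ was lower in 4 of 4 pairs. The log2 fold change was -0.40 (SE 0.05, edgeR adjusted p = 6.1e-06), and the pair means spanned 1.06 (adjusted p for replicate number = 3.93e-10). Without the replicate block its adjusted p was 0.667, and with the libraries numbered 2 also left out it was 0.024.

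Dnaja1, a farnesylated Hsp40 of the cytosol, had 234, 273, 268 and 264 CPM in YFP- and 209, 229, 251 and 198 CPM in YFP+. It was lower in YFP+ in 4 of 4 pairs and fell by 0.23 on the log2 scale (SE 0.06, edgeR adjusted p = 0.00753). Of its 50-base stretches 18.7% occur elsewhere in the annotation. Unlike most of its class it did not pass for replicate number (edgeR adjusted p = 0.171). The call rested on number 4, since without the YFP- library, the YFP+ library or both the adjusted p was 0.147, 0.122 and 0.126. Each of these leaves pair 4 out of the comparison of gates.

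Among constitutive members, Hspa8, the Hsc70 that serves normal folding (chromosome 9, 40800984 to 40810087, plus strand), had 593, 712, 612 and 561 CPM in YFP- and 531, 605, 533 and 479.6 CPM in YFP+. It was lower in YFP+ in 4 of 4 pairs, highest at number 2 in each gate, and fell by 0.20 on the log2 scale (SE 0.05, edgeR adjusted p = 0.00391). Of its 50-base stretches 51.4% occur elsewhere in the annotation and small nucleolar RNAs lie within it, so its counts are uncertain. Without the block its adjusted p was 0.317.

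Dnajb6, an Hsp40 known for holding back aggregation of polyglutamine proteins, had 47.8, 53.5, 47.7 and 53.9 CPM in YFP- and 39.0, 40.6, 35.1 and 48.7 CPM in YFP+. YFP+ was lower in 4 of 4 pairs, although the highest YFP+ library passed the lowest YFP- ones (log2 fold change -0.32, SE 0.08, edgeR adjusted p = 0.00931). Of its 50-base stretches 35.8% occur elsewhere. Without the YFP- library numbered 2 the call was lost (adjusted p = 0.0582), but without the YFP+ one it was kept. Both leave pair 2 out of the comparison of gates, so the call lay near the threshold there. The call was also lost without the YFP- or YFP+ library numbered 3 (adjusted p = 0.0971 and 0.0878), in effect the same check. Dnajc8, a nuclear J-protein linked to splicing, was higher in YFP+ in 4 of 4 pairs, with 56.5, 62.2, 59.5 and 67.4 CPM in YFP- and 59.1, 79.3, 80.9 and 73.1 CPM in YFP+. Its log2 fold change was 0.24 (SE 0.07, edgeR adjusted p = 0.0296). It did not pass when either library numbered 2 or 3, and with it the pair, was out of the comparison (adjusted p from 0.11 to 0.263). Nor did it pass in the authors' deposited table (adjusted p 0.0558).

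Hsp90ab1 had 1280.3, 1019.6, 1188 and 1023 CPM in YFP- and 1184, 1026, 1169 and 945 CPM in YFP+. Its highest library was number 1 in each gate, the gates overlapped, and the log2 fold change of -0.06 did not pass (SE 0.05, edgeR adjusted p = 0.479). The other 24 constitutive members ran from -0.30 to 0.23 and none passed, among them the mitochondrial Hsp70 Hspa9 (0.09), the Hsp110 relative Hspa4 (0.01) and the general Hsp40 Dnaja2 (0.04).

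The ER class had its own order of numbers. Hspa5 (chromosome 2, 34771970 to 34777547, plus strand) had 1289, 797, 955 and 804 CPM in YFP- and 1244, 739, 847 and 632 CPM in YFP+. Number 1 was the highest library of each gate, and the pair means spanned 0.83 on the log2 scale (edgeR adjusted p for replicate number = 3.98e-08). Within pairs it was lower in YFP+ in 4 of 4 and fell by 0.17 on the log2 scale (SE 0.05, edgeR adjusted p = 0.0265). Without the YFP- or YFP+ library numbered 3 the adjusted p was 0.155 or 0.158, and without either numbered 4 it was 0.343 or 0.304. Each of these leaves that whole pair out of the comparison of gates.

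Hsp90b1, also called Grp94, had 1055, 673, 825 and 727 CPM in YFP- and 1039.6, 695, 839 and 633 CPM in YFP+. It shared the high level at number 1 (edgeR adjusted p for replicate number = 1.12e-06) but not a difference between gates (log2 fold change -0.04, edgeR adjusted p = 0.717). The ER J-proteins Dnajc3, Dnajb9 and Dnajb11 also differed among numbers (edgeR adjusted p = 6.96e-05, 0.000163 and 0.00217), each highest at number 1 in both gates. Dnajb9 had 92.4, 53.4, 57.8 and 68.2 CPM in YFP- and 75.8, 52.7, 55.4 and 64.2 CPM in YFP+. The 7 tested ER members other than Hspa5 ran from -0.11 to 0.07 between gates, and none passed.

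The muscle class was low. Hspb6, also called Hsp20 and known from smooth and striated muscle, had 5.34, 3.93, 4.01 and 2.79 CPM in YFP- and 5.88, 5.17, 5.79 and 3.6 CPM in YFP+. It was higher in YFP+ in 4 of 4 pairs but did not pass (log2 fold change 0.36, SE 0.23, edgeR adjusted p = 0.393). The summed level of 12 smooth-muscle markers, among them Acta2 and Myh11, was 1081 to 1482 CPM in YFP- and 1458 to 2169 CPM in YFP+, with 11 of 12 higher, and their part in the level of Hspb6 was not tested. Hspb2 had a wide error and did not pass (log2 fold change -1.01, SE 0.75, edgeR adjusted p = 0.463).

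Of the 13 tested members without a class, 0 passed between gates by edgeR, DESeq2 or limma-voom, against 0 lower and 2 higher at an unadjusted p under 0.05, and Hspa1l, Hspa2 and Hspa12a passed for replicate number (edgeR adjusted p = 2.48e-05, 0.0157 and 0.0496). Dnajc18 was the member whose YFP+ libraries all lay above the YFP- ones, at 40.0 to 44.7 CPM against 34.3 to 39.0, a separation in that direction seen in 3.78% of all tested genes. Its log2 fold change of 0.22 had an SE of 0.09 and did not pass (edgeR adjusted p = 0.109). Dnajc12 had the highest estimate of all members (0.78, SE 0.43, edgeR adjusted p = 0.291) at 1.60 to 2.49 CPM in YFP+.

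The 11 members that were not tested had few counts. Dnajb3, Dnajc5g and Hspb3 had 0 counts in 8 of 8 libraries, where 3 counts, the limit that a count of 0 allows, are worth 0.0981 to 0.132 CPM per library, for counting error only. The others summed over 8 libraries to 104 counts (Hspb7), 40 (Dnajc22), 28 (Hspb9), 24 (Dnajb8), 18 each (Dnajb7 and Dnajc5b), 11 (Dnajb13) and 9 (Dnajc25).

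Partners of the chaperones were read from lists of their pathway, beside 7.85% lower and 3.65% higher over all tested genes. For lists of 10 to 19 genes, 1 call is near that share. Of 10 Bag and other exchange factors, 1 fell and 0 rose: Bag3, which links Hsp70 and Hspb8 to autophagy and is itself a target of Hsf1, had 211, 329, 264 and 241 CPM in YFP- and 173, 274, 179 and 186 CPM in YFP+. It was lower in YFP+ in 4 of 4 pairs and highest at number 2 in each gate (log2 fold change -0.37, SE 0.06, edgeR adjusted p = 4.57e-05). Of 9 Hsf factors and genes listed as their regulators, 2 fell and 0 rose. Dedd2, a death-effector-domain protein, had 80.0, 63.6, 73.7 and 93.0 CPM in YFP- and 65.5, 37.2, 52.2 and 63.0 CPM in YFP+ (log2 fold change -0.53, edgeR adjusted p = 1.58e-05). Unlike Bag3, Dedd2 was lowest at number 2 in each gate (edgeR adjusted p for replicate number = 0.000691). Ier5, an immediate-early gene whose product activates Hsf1, had 109, 144, 131 and 166 CPM in YFP- and 93.8, 132, 95.3 and 121 CPM in YFP+ (log2 fold change -0.32, edgeR adjusted p = 0.00119). Both were lower in YFP+ in 4 of 4 pairs, while Hsf1 itself did not pass (log2 fold change 0.16, edgeR adjusted p = 0.31).

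Among 19 Hsp90 co-chaperones, 1 fell and 0 rose, and the median was 0.08. That gene was Fkbp5, a glucocorticoid-responsive immunophilin, with 89.9, 32.5, 52.2 and 90.9 CPM in YFP- and 86.0, 25.6, 38.0 and 77.8 CPM in YFP+. Its order of numbers was the reverse of the inducible class, lowest at number 2 in each gate (edgeR adjusted p for replicate number = 3.12e-10). Between gates the log2 fold change was -0.27 (SE 0.08, edgeR adjusted p = 0.0192), a call lost without pair 2, 3 or 4, by leaving out either library (adjusted p from 0.0581 to 0.193). The 8 subunits of the TRiC chaperonin had 0 calls in either direction by edgeR, DESeq2 or limma-voom (0 lower and 1 higher at an unadjusted p under 0.05) and a median of 0.09, with Cct5 the most abundant (0.04, edgeR adjusted p = 0.799). Of the other small heat-shock proteins, Cryab, the alpha-B crystallin, was tested and fell, with 27.1, 38.2, 23.2 and 21.9 CPM in YFP- and 17.9, 25.1, 17.8 and 13.3 CPM in YFP+ (log2 fold change -0.58, SE 0.11, edgeR adjusted p = 0.000322). Without the replicate block, Bag3, Dedd2, Ier5, Fkbp5 and Cryab did not pass (adjusted p from 0.173 to 0.9).

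Other gene groups moved with the gates, and their part in these results was not tested. Of the 20 immediate-early genes 17 were lower in YFP+, with sums of 12246 to 14601 CPM in YFP- and 9760.1 to 10364 CPM in YFP+. Of 10 enteric glia markers, such as Sox10, 9 were lower, with a median log2 fold change of -3.31, sums of 248 to 315 CPM in YFP- against 112 to 143 CPM in YFP+, and none at 0 counts in every library. Most of the YFP+ sum was Gpm6b, at 127 to 148 CPM in YFP- and 104 to 133 CPM in YFP+ (log2 fold change -0.23). The other markers called lower ran from -6.41 to -1.86 on the log2 scale, so the sums understate their fall. Epithelial markers summed to 48.9 to 102 CPM in YFP- and 21 to 28.9 CPM in YFP+. Of these 13 markers 6 were lower by edgeR, 9 by DESeq2 and 10 by limma-voom. Endothelial markers (3 of 8 tested lower) summed to 61.5 to 90.5 CPM in YFP- and 41.8 to 54.3 CPM in YFP+. Blood cell markers (1 of 7 tested lower) summed to 87.2 to 306 CPM in YFP- and 45.5 to 342 CPM in YFP+. The Itgam entry in this sum had 0 counts in 8 of 8 libraries. Another Itgam entry, outside the sum, had 0.0372 CPM in YFP+ replicate 1 and 0 in the other libraries. Of the 8 fibroblast genes 5 were lower. Mitochondrially encoded genes held 5.2%, 7.38%, 6.62% and 6.59% of counts in YFP- and 4.13%, 4.53%, 4.86% and 4.74% in YFP+.

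In the authors' deposited table, 6 members had a negative log2 fold change at an adjusted p under 0.05 and 0 a positive one. The 6 were the members that fell here.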

How the data were processed

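RNA was measured in 8 libraries of sorted stromal cells, 4 per gate, with a stranded total RNA kit for small inputs per the labels' protocols. The submitters' processing notes name GRCm38 (mm10), STAR 2.7.3a, featureCounts 2.0.1, cutadapt 3.4 and DESeq2. The annotation release and the strand setting come with no statement in the sources used here. The deposited table holds raw counts per gene, which the authors' counting gave as whole numbers without normalisation. It also holds log2 fold changes of YFP+ over YFP- that the authors deposited, with p-values adjusted by the authors. Another 8 normalised columns were not used.

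Genes passing filterByExpr were fitted in R 4.3.3 with edgeR 4.0.16 (TMM scaling, robust quasi-likelihood F test, gate plus replicate number), and p-values were adjusted by Benjamini-Hochberg over all 16354 genes at 0.05. Scripts were tested on simulated data. CPM are counts per 1000000 of the library total times its TMM factor, and log CPM used a prior count of 2. The block was used because the comparison is within same-numbered pairs. Over 5195 well-covered genes, deviations from the gate means correlated at 0.60, 0.64, 0.38 and 0.58 between same-numbered libraries and at -0.42 to 0.05 between others. No 2 libraries of the same gate agreed within sampling noise (lowest chi-square per degree of freedom 18.8). Libraries of different gates were not compared in this way.

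Members and lists were chosen with earlier results of these data known. All tested inducible members, other members that passed and averaged 5 CPM or more, and the most abundant member of each class are given in full, with the 2 pathway genes of smallest p per direction, or the most abundant where none passed. Other genes named were chosen after their values were seen. Alternatives were other scalings and filters, limma-voom (limma 3.58.1), DESeq2 1.42.0, no block, no mitochondrial or ribosomal RNA genes, and each replicate left out. Gene positions and exon lengths are from GENCODE M21 (GRCm38), promoters from RefSeq (GRCm38.p6). An item is not reported here and was left out of its marker list.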

Additional observations from a re-analysis of the deposited data

Results flagged for a closer look

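In 7 of 60 groups of 4 values, 1 library stood far from the other libraries of its gate by Dixon's test, where chance alone gives about 3 (about 1 in 20). In 4 of these the library was numbered 2 and the highest. Dnajb1 stood at 397 CPM in YFP- replicate 2 and at 292 CPM in YFP+ replicate 2, and in YFP+ replicate 2 Hspd1 stood at 63.3 CPM and Bag3 at 274 CPM. In the other 3 the library was numbered 4. The summed constitutive class was lowest in YFP+ replicate 4 at 2503 CPM, the summed small heat-shock proteins of muscle were lowest there at 4.33 CPM, and the total of YFP- replicate 4 was the highest of its gate at 28688906 counts.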

How the results depend on the processing

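Without the replicate block, 547 genes were lower and 150 higher in YFP+, against 1283 and 597 with it. Of the members 1 was then lower (Hspb8, also the 1 inducible call) and 0 higher, with 0 constitutive members lower and 0 higher. A setting chosen after seeing the data left out both libraries numbered 2 as well as the block and gave 452 genes lower and 141 higher, 2 members lower (Dnajb1 and Hspb8), 0 higher, and 0 constitutive members either way. With the block, leaving out replicates 1 at a time or as pairs gave 830 to 1126 genes lower, 330 to 511 higher, 4 to 7 members lower, 0 to 1 higher, 3 to 4 inducible members lower, 1 to 2 constitutive members lower and 0 to 1 higher. The fewest genes were called without YFP- or YFP+ replicate 3 (830 and 848 lower, 365 and 330 higher). In these fits a library left without its partner tells nothing about the gate. Leaving out 1 library of a number or both is thus nearly the same check of the gate. Members that differed among replicate numbers ran from 13 to 20, inducible ones from 6 to 11 and all genes from 861 to 1482, each lowest without both libraries numbered 2. The cause was not tested. Other scalings, filters, DESeq2 and limma-voom kept all 6 members that fell, and the inducible minus constitutive median ran from -0.29 to -0.20 over all alternatives. Of the members and pathway genes given in full, those that passed kept their sign under each alternative. About 3 counts (0.0981 to 0.132 CPM per library) are the highest level that a count of 0 allows, for counting error only.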
